A study of Homo sapiens with 8 samples.

Results

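The 9 genes described here handle iron at the surface, in the endosome and in the cytosol of a cell. They are picked from the tables by name, and the set was drawn up with earlier results of these data known: TFRC, SLC11A2 and STEAP3 for uptake, FTH1, FTL and NCOA4 for storage and release, SLC40A1 for export, and ACO1 and IREB2 as sensors. Each name matched 1 row of the gene tables, so the set is 9 of 57820 genes. The Ensembl identifiers in the tables are ENSG00000072274.8 for TFRC, ENSG00000110911.10 for SLC11A2, ENSG00000115107.15 for STEAP3, ENSG00000167996.11 for FTH1, ENSG00000087086.9 for FTL, ENSG00000138293.15 for NCOA4, ENSG00000138449.6 for SLC40A1, ENSG00000122729.14 for ACO1 and ENSG00000136381.8 for IREB2. RNA was sequenced in 8 libraries from A549, a human cell line derived from a lung adenocarcinoma. The groups were cells with an MGA overexpression vector, cells with an empty vector (Empty), cells treated with an siRNA that silences MYC (siMYC) and cells treated with a negative control siRNA (siNC), with 2 libraries in each. MGA binds DNA together with MAX, as the MYC oncoprotein does, so the experiments ask how the genes respond to more MGA and to less MYC. The labels do not say whether the cells were clones or pools, how long they were treated, or whether replicates A and B grew as separate cultures, and every p-value here therefore reflects library-to-library spread that may be technical.

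Cells take up iron bound to transferrin through the transferrin receptor TFRC, the reductase STEAP3 reduces the iron inside the endosome, and the transporter SLC11A2 (DMT1) carries it into the cytosol. Iron that is not used is stored in ferritin, a shell built of FTH1 and FTL chains, which the adaptor NCOA4 delivers to lysosomes for release. SLC40A1 (ferroportin) exports iron. When iron is low, the iron regulatory proteins ACO1 (IRP1) and IREB2 (IRP2) bind hairpins called iron responsive elements: binding in the 5′ UTR blocks translation and binding in the 3′ UTR protects the message from decay. TFRC is also known as a MYC target gene, and FTH1 as a gene that MYC represses.

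The hairpins are a feature that several members share, and they are shown first. The set holds both proteins that bind these hairpins, so it was not drawn up independently of them. The share of members with a match is therefore a description only. GENCODE 29 transcripts (GRCh38) were searched for a C, any 5 bases, the loop CAGTGN (N not G), and 5 bases able to pair with the first 5 (G with T allowed), with at least 4 pairs between the 5 bases that flank the stem on each side. A match was present in 4 of the 9 members and in 18 of 19669 protein-coding genes (0.092%) in their longest transcript. The matches are printed with the loop in capitals.
FTH1, 5′ UTR, chr11:61967575-61967601, minus strand: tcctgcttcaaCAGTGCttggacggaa
FTL, 5′ UTR, chr19:48965336-48965362, plus strand: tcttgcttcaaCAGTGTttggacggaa
SLC40A1, 5′ UTR, chr2:189580662-189580688, minus strand: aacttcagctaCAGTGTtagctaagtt
TFRC, 3′ UTR, chr3:196050980-196051006, minus strand: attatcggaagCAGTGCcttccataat
TFRC, 3′ UTR, chr3:196050576-196050602, minus strand: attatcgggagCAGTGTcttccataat
TFRC, 3′ UTR, chr3:196050511-196050537, minus strand: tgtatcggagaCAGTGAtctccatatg
TFRC, 3′ UTR, chr3:196050464-196050490, minus strand: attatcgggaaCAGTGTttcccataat
The elements of the ferritin pair were identical at 25 of 27 bases, and the FTL element differed from that of FTH1 by C3T and C17T, counted from 1 at the 5′ end. TFRC carried 4 matches and no other gene carried more than 1. The other 5 members held no match to these letters, which says nothing of elements of another shape.

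The libraries were shallow, with 820428 to 2129006 expected counts, and the vector experiment was shallower than the siRNA experiment. MGA itself took 9.54% and 9.68% of counts with its vector, against 0.0124% and 0.00829% with Empty. MYC stood at 48.3 and 41.1 CPM (counts scaled to a common depth by TMM) in the siMYC libraries, against 219 and 183 CPM in the siNC libraries, so both manipulations show in their target. MYC was also higher with MGA, at 296 and 347 CPM, against 234 and 241 CPM in Empty (log2 fold change 0.43; edgeR adjusted p = 0.025). Of 10 markers of lung epithelium and A549 cells, KRT8, KRT18, AKR1B10, AKR1C1 and ALDH1A1 were abundant in every library, the lowest value being 318 TPM of AKR1C1, KRT19 ran between 9.18 and 155 TPM, EPCAM was at most 1.13 TPM in the vector libraries and between 6.67 and 14.9 TPM in the siRNA libraries, and NKX2-1, SFTPB and SFTPC had 0 counts in all. Of the 7 of these markers that could be tested, 0 rose and 3 fell with MGA, and 2 rose and 2 fell with siMYC. Of 8 markers of other cell types, 7 were in the tables, and PTPRC and CD3E, markers of blood cells, had 0 counts in every library, while the monocyte marker CD14 was detected at 3.02 to 12.1 TPM, with 8.20 and 12.1 TPM in siMYC, against 3.02 and 3.95 TPM in siNC. The summed TPM of those 7 was at most 28.2 in MGA and 22.9 in Empty, and it was 93.0 and 102 in siMYC, against 10.9 and 23.7 in siNC. COL1A1, a fibroblast collagen, made up most of the siMYC sum, at 84.9 and 87.2 TPM against 7.85 and 19.8 TPM in siNC, and the part of COL1A1 and CD14 in the siMYC results was not tested.

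Ferritin messages were among the most abundant of the cell. On the length-corrected TPM scale FTL ranked between 3 and 5 of all genes in each library and FTH1 between 6 and 13. Together they averaged 1.67% ± 0.016 of all TPM in MGA, 1.46% ± 0.097 in Empty, 1.97% ± 0.098 in siMYC and 1.63% ± 0.055 in siNC (SD, n = 2 each). In every group FTL was the highest member and FTH1 the second, and they were followed at a distance by NCOA4 and TFRC, whose libraries overlapped in MGA and siMYC and did not in Empty and siNC. ACO1, IREB2, SLC11A2 and STEAP3 followed with group means of 18.6 to 59.2 TPM. In MGA, IREB2 overlapped with both ACO1 and SLC11A2, which did not overlap with each other. SLC11A2 and STEAP3 overlapped in siMYC and in siNC. In siMYC IREB2 (58.5 and 52.0 TPM) also overlapped with NCOA4 (68.05 and 52.6 TPM). SLC40A1 was the lowest member in MGA, Empty and siNC, and in siMYC it lay above SLC11A2 and STEAP3. Processed copies did not carry much of the ferritin signal: 25 rows named as FTH1 copies and 16 named as FTL copies held at most 0.131% and 0.012% of their parent's counts in any library.

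**Figure D1:**
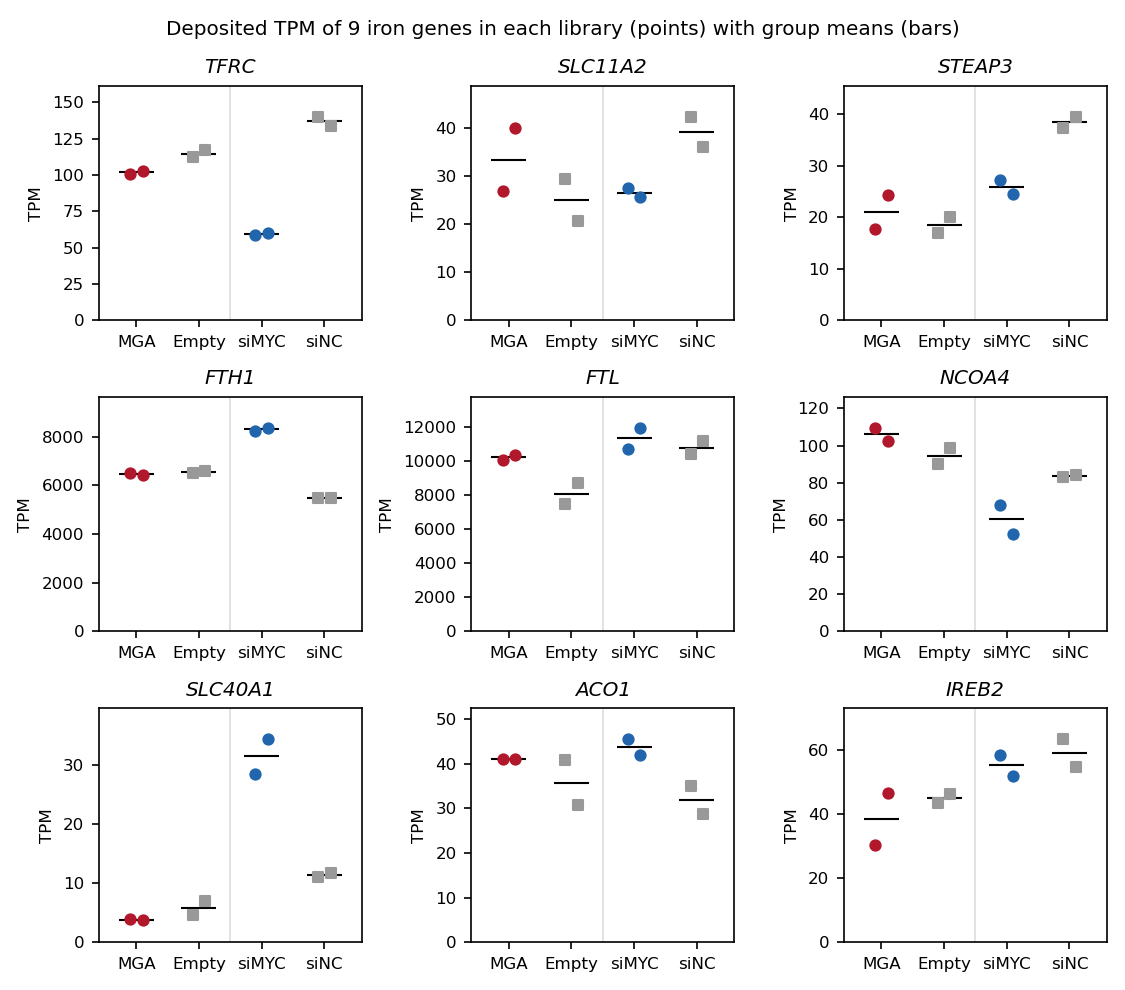
Deposited TPM (y axis, from 0, a separate scale for each gene) of the 9 genes in each library (points, 2 a group), with group means as black lines and the vector and siRNA experiments divided by a grey line. TFRC lay at 58.7 and 59.9 TPM in siMYC, below siNC, and SLC40A1 at 28.5 and 34.5 TPM in siMYC, above siNC.

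With siMYC, the uptake genes TFRC, SLC11A2 and STEAP3 and the ferritin adaptor NCOA4 fell, and the ferritin heavy chain FTH1 and the exporter SLC40A1 rose. Of the 9 members 6 changed, against 39% of all 11218 genes tested, and 2 rose and 4 fell, against 19% and 20% of all genes. The median size of the change, whatever its sign, was 0.56 on the log2 scale over the members and 0.41 over all genes, and the signed medians were -0.09 and 0.01. In CPM the siMYC and siNC libraries did not overlap for 8 of 9 members, against 67.6% of all genes. A gap between the groups is thus common among all genes. All 9 members passed the filter on low counts, SLC40A1 with as few as 6 counts in a library.

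All 3 uptake members were lower with siMYC. TFRC had 58.7 and 59.9 TPM in siMYC libraries, against 140.1 and 133 TPM in siNC libraries, from 364 and 305 counts against 659 and 755. Both siMYC libraries lay below both siNC libraries. TFRC averaged 177 ± 14.1 CPM in siMYC and 456 ± 21.6 CPM in siNC (SD, n = 2 each), a log2 fold change of -1.37 (SE 0.10, 95% interval -1.56 to -1.17, adjusted p = 9.8e-12 in edgeR), or 0.388 of the control level. TFRC kept its call in every alternative run, with log2 fold changes between -1.45 and -1.19. In the edgeR fit of all libraries this was the largest change in size among the members, whereas SLC40A1 exceeded it on TPM (1.38 against -1.19 for TFRC) and without siMYC replicate A (1.33 against -1.28).

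SLC11A2 had 27.4 and 25.7 TPM in siMYC libraries, against 42.4 and 36.0 TPM in siNC libraries, and the groups did not overlap. SLC11A2 messages were fitted at 0.533 of the siNC level, or -0.91 on the log2 scale (SE 0.16; edgeR adjusted p = 3.9e-05), and the call was lost on TPM (log2 fold change -0.54, adjusted p = 0.3 in limma). The effective length that RSEM assigned to SLC11A2 ran between 1787 and 3163 bases over the libraries, which enters TPM and not CPM. STEAP3 had 27.3 and 24.6 TPM in siMYC libraries, against 37.3 and 39.6 TPM in siNC libraries. Both siMYC libraries were lower, STEAP3 having a fitted change of -0.56 with an SE of 0.15 (edgeR, adjusted p = 0.0050), the weakest of the calls in the siRNA experiment. The STEAP3 call was lost without siNC replicate B (log2 fold change -0.34, adjusted p = 0.19 in edgeR), with DESeq2 (-0.51, adjusted p = 0.19) and on TPM (-0.55, adjusted p = 0.23 in limma).

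The ferritin chains parted. FTH1 had 8248 and 8378 TPM in siMYC libraries, against 5477 and 5463 TPM in siNC libraries, and the siMYC libraries held the highest FTH1 levels of the study. FTH1 averaged 4058 ± 150.1 CPM in siMYC and 3187 ± 103 CPM in siNC (SD, n = 2 each), a log2 fold change of 0.35 (SE 0.06, 95% interval 0.22 to 0.48, adjusted p = 9.3e-05 in edgeR). The size depended on the scale, at 1.27-fold in fitted CPM and 1.52-fold in mean TPM, and every alternative kept the call. FTL had 10730 and 11987 TPM in siMYC libraries, against 10413 and 11199 TPM in siNC libraries, and these overlap. Its log2 fold change was -0.09 (95% interval -0.25 to 0.06, adjusted p = 0.35 in edgeR), so a change of the size seen for FTH1 lies outside the interval. The FTH1 to FTL ratio of TPM within a library was 0.769 and 0.699 in siMYC, against 0.526 and 0.488 in siNC.

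NCOA4, the ferritin delivery adaptor, had 68.0 and 52.6 TPM in siMYC libraries, against 83.1 and 84.1 TPM in siNC libraries. Both siMYC libraries were lower, the fitted log2 change being -0.68 with an SE of 0.11 (edgeR, adjusted p = 2.4e-05), and the call was lost on TPM (-0.48, adjusted p = 0.14 in limma). NCOA4 and FTH1 thus changed in opposite directions in the same libraries.

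SLC40A1, the exporter, had 28.5 and 34.5 TPM in siMYC libraries, against 11.0 and 11.8 TPM in siNC libraries, from 116 and 108 counts against 35 and 47. The groups did not overlap. It averaged 59.8 ± 9.17 CPM in siMYC and 26.2 ± 1.70 CPM in siNC (SD, n = 2 each), a log2 fold change of 1.17 (SE 0.19, 95% interval 0.78 to 1.56, adjusted p = 1.6e-05 in edgeR). In every alternative run the SLC40A1 call held, with adjusted p-values up to 0.046.

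Neither sensor passed the test with siMYC. ACO1, which is an aconitase when it holds an iron-sulfur cluster and binds RNA when it does not, had 45.7 and 42.0 TPM in siMYC libraries, against 35.1 and 28.8 TPM in siNC libraries. The groups did not overlap, and the log2 fold change was 0.26 (95% interval -0.02 to 0.54, adjusted p = 0.14 in edgeR). IREB2, which is degraded when iron is plentiful, had 58.5 and 52.0 TPM in siMYC libraries, against 63.6 and 54.8 TPM in siNC libraries. Its log2 fold change was 0.14 (95% interval -0.08 to 0.35, adjusted p = 0.33 in edgeR) in counts and -0.10 on TPM. The effective length of IREB2 ran between 4040 and 6131 bases over the libraries.

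**Figure D2:**
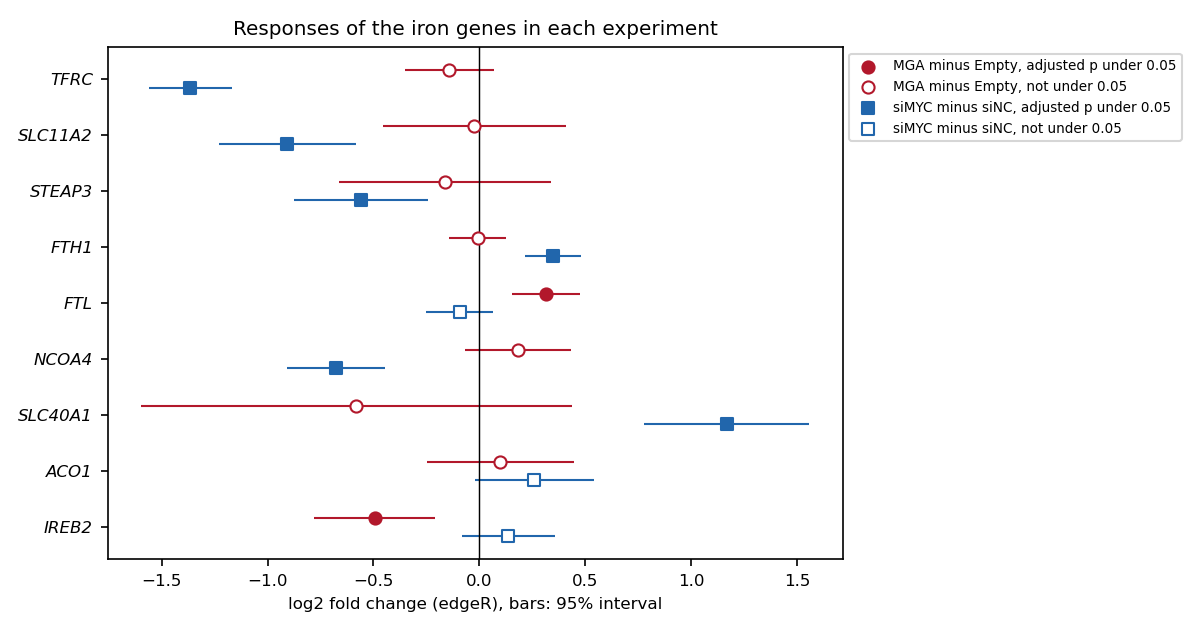
Log2 fold change (x axis) of each gene (rows) for MGA minus Empty (red circles) and siMYC minus siNC (blue squares), with 95% intervals as bars. Filled symbols passed an adjusted p of 0.05: with siMYC these were TFRC, SLC11A2, STEAP3, FTH1, NCOA4 and SLC40A1, and with MGA they were FTL and IREB2.

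Overexpression of MGA left most of the set without a detectable change. With MGA, FTL rose and IREB2 fell, and the other 7 members did not pass the test. That is 2 of 9 members, against 8.96% of all genes, with 1 higher and 1 lower, against 4.96% and 4% of all genes. The median size of the change was 0.16 on the log2 scale over the members and 0.28 over all genes. In CPM the MGA and Empty libraries did not overlap for 5 of 9 members, against 52.6% of all genes. Both calls were lost in several alternatives, given with each gene.

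FTL had 10087 and 10393 TPM in MGA libraries, against 7465 and 8725 TPM in Empty libraries, and both MGA libraries were higher. It averaged 4516 ± 66.1 CPM in MGA and 3634 ± 422 CPM in Empty (SD, n = 2 each), with a log2 fold change of 0.31 (SE 0.08, 95% interval 0.15 to 0.47, adjusted p = 0.010 in edgeR). The FTL call was lost without MGA replicate A (0.33, adjusted p = 0.068), without MGA replicate B (0.30, adjusted p = 0.091), without Empty replicate A (0.20, adjusted p = 0.23), on TPM (0.34, adjusted p = 0.12 in limma) and with upper-quartile size factors (0.24, adjusted p = 0.060). With library sizes alone it was 0.19 (adjusted p = 0.12), where the median of all genes moved to -0.12. FTH1 was not called, at 6514 and 6440.1 TPM in MGA libraries, against 6491 and 6610 TPM in Empty libraries, with a log2 fold change of -0.01 (95% interval -0.14 to 0.13). The FTH1 to FTL ratio of TPM was 0.646 and 0.620 in MGA, against 0.869 and 0.758 in Empty.

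IREB2 had 30.3 and 46.5 TPM in MGA libraries, against 43.4 and 46.5 TPM in Empty libraries, so on TPM the groups overlapped. In CPM it averaged 122 ± 10.4 in MGA and 172 ± 11.8 in Empty (SD, n = 2 each), and the fitted log2 change was -0.49 with an SE of 0.14 (edgeR, adjusted p = 0.024). Each of the 4 libraries was needed for this call: the log2 fold change was -0.40 without MGA replicate A (adjusted p = 0.26), -0.58 without MGA replicate B (adjusted p = 0.062), -0.57 without Empty replicate A (adjusted p = 0.070) and -0.43 without Empty replicate B (adjusted p = 0.20). It was also lost with DESeq2 (-0.49, adjusted p = 0.12) and on TPM (-0.25, adjusted p = 0.63 in limma).

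The uptake genes gave small values with MGA. TFRC had 101 and 103 TPM in MGA libraries, against 113 and 117 TPM in Empty libraries. Both MGA libraries were lower, but the log2 fold change of -0.14 (95% interval -0.35 to 0.07, adjusted p = 0.45 in edgeR) did not pass, and its interval does not reach the size seen with siMYC. SLC11A2 had 27.0 and 39.9 TPM in MGA libraries, against 29.4 and 20.6 TPM in Empty libraries, and STEAP3 had 17.8 and 24.4 TPM, against 17.1 and 20.1 TPM. In both the groups overlapped, and the 95% intervals of the log2 fold change were wide, at -0.46 to 0.41 for SLC11A2 and -0.66 to 0.34 for STEAP3.

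NCOA4 had 109.7 and 102 TPM in MGA libraries, against 90.0 and 98.8 TPM in Empty libraries, with a log2 fold change of 0.18 (95% interval -0.07 to 0.43). ACO1 had 41.0 and 41.0 TPM in MGA libraries, against 40.8 and 30.8 TPM in Empty libraries, with a log2 fold change of 0.10 (95% interval -0.25 to 0.45). SLC40A1 had only 6 and 7 counts in MGA libraries, against 9 and 8 counts in Empty libraries, and the interval of its log2 fold change ran between -1.60 and 0.44, so a change of this gene was not detectable at this depth. None of these 3 passed the test.

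The responses themselves differed between the experiments for most of the set. The difference between them, MGA minus Empty less siMYC minus siNC, passed an adjusted p of 0.05 in edgeR for 7 of 9 members, against 18.5% of all genes. It was 1.22 for TFRC (SE 0.14, adjusted p = 4.5e-07), 0.86 for NCOA4 (SE 0.17, adjusted p = 0.00053) and 0.88 for SLC11A2 (SE 0.26, adjusted p = 0.019). These 3 genes fell with siMYC and were not called with MGA. The difference was -0.36 for FTH1 (SE 0.09, adjusted p = 0.0069), 0.41 for FTL (SE 0.11, adjusted p = 0.0092), -0.63 for IREB2 (SE 0.18, adjusted p = 0.012) and -1.75 for SLC40A1 (SE 0.54, adjusted p = 0.023). It did not pass for STEAP3 (0.40, adjusted p = 0.38) or ACO1 (-0.16, adjusted p = 0.67).

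Of these differences TFRC alone passed in every alternative run, and NCOA4 was lost on TPM only (0.64, adjusted p = 0.23 in limma). On TPM the difference was also lost for FTL (0.27, adjusted p = 0.29), IREB2 (-0.15, adjusted p = 0.86), SLC11A2 (0.94, adjusted p = 0.27) and SLC40A1 (-1.86, adjusted p = 0.095). With DESeq2 it was lost for IREB2 (-0.66, adjusted p = 0.066) and SLC11A2 (0.84, adjusted p = 0.20). SLC40A1 was given no adjusted p by DESeq2 (-1.80) and so was not called there. With upper-quartile size factors the difference was lost for FTL (0.29, adjusted p = 0.073). With library sizes alone it was lost for FTL (0.24, adjusted p = 0.12) and SLC11A2 (0.71, adjusted p = 0.060). Without MGA replicate A the difference was -0.34 for FTH1 (adjusted p = 0.051), -0.53 for IREB2 (adjusted p = 0.11), 0.79 for SLC11A2 (adjusted p = 0.13) and -1.45 for SLC40A1 (adjusted p = 0.14). Without Empty replicate A it was 0.30 for FTL (adjusted p = 0.076) and -1.68 for SLC40A1 (adjusted p = 0.12). Without Empty replicate B it was -0.55 for IREB2 (adjusted p = 0.086), 0.72 for SLC11A2 (adjusted p = 0.11) and -1.80 for SLC40A1 (adjusted p = 0.078). Without siMYC replicate A it was -0.54 for IREB2 (adjusted p = 0.052) and 0.76 for SLC11A2 (adjusted p = 0.067). All of these kept their sign.

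Ratios of members within a library do not depend on how libraries are scaled to each other. Those of TPM do depend on the effective length of each gene. The FTH1 to TFRC ratio of TPM was 64.7 and 62.7 in MGA, against 57.7 and 56.6 in Empty. In siMYC this ratio was 140.5 and 139.8, against 39.1 and 41.0 in siNC, so it was highest in siMYC, with a mean of 140.2 ± 0.54 against 40.0 ± 1.32 in siNC (SD, n = 2 each). The SLC40A1 to TFRC ratio was 0.486 and 0.576 in siMYC, against 0.0787 and 0.0886 in siNC. In the vector experiment it was 0.0396 and 0.0361 in MGA, against 0.0416 and 0.0604 in Empty. The ACO1 to IREB2 ratio of TPM was 0.780 and 0.808 in siMYC, against 0.551 and 0.526 in siNC. It was 1.36 and 0.881 in MGA, against 0.941 and 0.663 in Empty, where the groups overlapped. The effective length of IREB2, which enters TPM, averaged 6039 bases in siMYC and 4597 bases in siNC. In CPM, which length does not enter, ACO1 averaged 99.9 in siMYC and 83.8 in siNC, and IREB2 210 and 192. The part of effective length in this ratio was not tested. With 2 libraries on either side the smallest p of an exact permutation test is 0.333, so the ratios are given without a test.

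**Figure D3:**
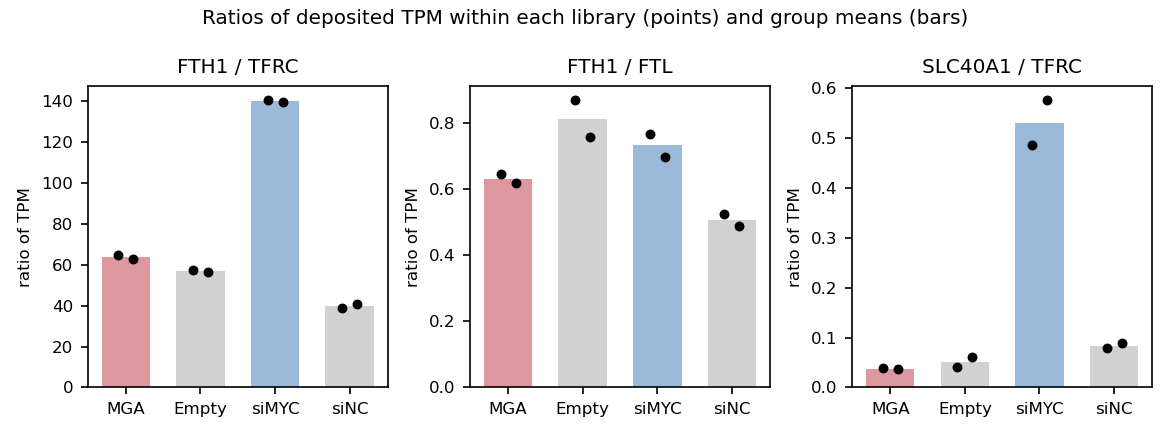
Ratios of deposited TPM within each library (y axes from 0) for FTH1 to TFRC, FTH1 to FTL and SLC40A1 to TFRC, with points for libraries and bars for group means. The siMYC libraries stand at 140.5 and 139.8 for FTH1 to TFRC, above the other groups, and for FTH1 to FTL the MGA libraries lie below Empty and the siMYC libraries above siNC.

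The control groups of the experiments did not start at the same levels. Between control libraries the largest gap was in STEAP3 and SLC40A1, with 17.1 and 20.1 TPM of STEAP3 in Empty and 37.3 and 39.6 TPM in siNC, and 4.68 and 7.05 TPM of SLC40A1 in Empty and 11.0 and 11.8 TPM in siNC. Experiment, vector or siRNA, and any day of culture cannot be told apart here, so no test was made of this gap. SLC40A1 had the widest span of group means in TPM, 8.19-fold, followed by TFRC at 2.31-fold and STEAP3 at 2.07-fold, and the other 6 spanned 1.37-fold to 1.76-fold.

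In bulk RNA a lower share of cells with a message and less message per cell cannot be told apart, and each level is a share of its library. The siMYC response of the genes with a hairpin was mixed. TFRC, with 4 matches in its 3′ UTR, fell, FTH1 and SLC40A1, with 1 match in the 5′ UTR, rose, and FTL, with 1 match in the 5′ UTR, was not called. Beyond the members a match was counted anywhere in the longest transcript, coding sequence included, and its place was not looked up. Of the 18 genes with a match, 7 beyond the members could be tested. With MGA 0 of these 7 were called by edgeR, DESeq2 or limma and 0 had an unadjusted p under 0.05. With siMYC 0 of them rose and 3 fell, where 39% of all genes were called. Those that fell were the nuclear import receptor IPO7 (-0.61 on the log2 scale with an SE of 0.09; edgeR adjusted p = 8.2e-06), the adhesion adaptor LIMS1 (-0.40, adjusted p = 0.0078) and the kinase of pyruvate dehydrogenase PDK1 (-1.01, adjusted p = 0.033).

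The 250 bases upstream of the start in the RefSeq table (GRCh38.p14) were searched for the E-box CACGTG, which MYC-MAX and MGA-MAX bind, and for TGANNNNGC on both strands, the core of the antioxidant response element. Of the 9 members 8 matched an entry, with 13 windows in all, and FTH1 did not. No member window held CACGTG, against 6.34% of 35116 windows, and 1 held TGANNNNGC, an SLC11A2 window, against 35.2%. This says only that these letters are not in these windows.

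Other genes of iron handling were taken from 10 lists of 130 genes, of which 112 could be tested. With siMYC 14 of the 112 rose and 32 fell (41.1%, close to the 39% of all genes), and with MGA 4 rose and 7 fell (9.82%, against 8.96%). The median log2 fold change was -0.19 with siMYC and -0.0015 with MGA, against 0.01 over all genes in each. In the 6 lists with 0 calls with MGA in edgeR, 2 of 44 entries had an unadjusted p under 0.05 and DESeq2 and limma called 0. Single calls named below come from the main edgeR fit, and whether each held in the alternatives is not given here. With MGA the calls over all genes went from 1005 in that fit to 358 with DESeq2 and 68 with limma on TPM. The counts of each list below stand beside the shares of all genes. With siMYC 19% of all genes rose and 20% fell, and with MGA 4.96% rose and 4% fell.

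Among uptake genes beside the members, 3 of 10 rose and 2 fell with siMYC and 0 changed with MGA. SLC39A14, a transporter of iron not bound to transferrin, averaged 115 ± 20.5 CPM in siMYC and 235 ± 7.32 CPM in siNC (SD, n = 2 each), which is -1.01 on the log2 scale with an SE of 0.12 (edgeR, adjusted p = 6.8e-08). MFI2 (melanotransferrin) rose by 0.94 on the log2 scale, and the endocytic receptor LRP1 by 1.10. Transferrin itself (TF) had 4 counts in all 8 libraries together and TFR2, the second transferrin receptor, 19.

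Among systemic and post-transcriptional regulators 2 of 10 rose and 2 fell with siMYC, and 0 changed with MGA. PCBP2, an RNA-binding protein that also delivers iron, fell by 0.65 on the log2 scale (adjusted p = 1.2e-06 in edgeR). HFE, a partner of TFRC, and NEO1, a receptor for hemojuvelin, rose by 0.85 and 0.65. The hormone HAMP (hepcidin), whose receptor is SLC40A1, had 3 counts in all libraries, and hemojuvelin (HFE2) had 0. Of 8 genes of export, oxidation and other storage, 5 had 0 counts in all libraries, among them the ferroxidase HEPH and mitochondrial ferritin FTMT. Of the 2 tested, APP rose with siMYC (0.52, adjusted p = 1.6e-05) and 0 changed with MGA.

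Genes that assemble or hold iron cofactors are read against the 19% of all genes that rose and the 20% that fell with siMYC. With MGA these shares were 4.96% and 4%. Of 20 genes of mitochondrial iron import and iron-sulfur cluster assembly, 8 fell and 0 rose with siMYC, with a median of -0.47 against 0.01 for all genes, and 2 fell and 0 rose with MGA. HSPA9, the chaperone of that assembly, fell by 0.65 with siMYC (adjusted p = 3.3e-07 in edgeR) and by 0.34 with MGA (adjusted p = 0.010). GLRX5 and ISCA1, which carry clusters, fell by 0.86 and 0.82 with siMYC. With MGA SLC25A37, the mitochondrial iron importer mitoferrin, averaged 84.8 ± 8.95 CPM in MGA and 144 ± 8.09 CPM in Empty (SD, n = 2 each), which is -0.77 on the log2 scale with an SE of 0.19 (edgeR, adjusted p = 0.0091).

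Of 25 enzymes and electron carriers that hold iron, 14 fell and 1 rose with siMYC, with a median of -0.65, and 4 fell and 1 rose with MGA, with a median of -0.16. RRM2, the iron subunit of ribonucleotide reductase, fell by 1.36 with siMYC and by 1.07 with MGA on the log2 scale, and the cytochromes CYCS and CYC1 fell by 1.20 and 1.21 with siMYC. RRM2B, the p53-induced counterpart of RRM2, rose with MGA (0.71, adjusted p = 0.0034 in edgeR), and ABCE1, an iron-sulfur protein of ribosome recycling, fell by 0.76. In cytosolic cluster assembly 1 of 9 genes fell with siMYC, CIAO1 (log2 fold change -0.75, adjusted p = 6.9e-05), and 0 changed with MGA.

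In heme synthesis 1 of 9 rose and 1 fell with siMYC and 0 changed with MGA. The porphyrin transporter ABCB6 rose by 0.75. In heme breakdown and transport 1 of 9 rose and 2 fell with siMYC, and 1 rose and 1 fell with MGA. HMOX1, the heme oxygenase that frees iron from heme, rose in both, at 430 ± 20.4 CPM in MGA and 190.3 ± 2.23 CPM in Empty, and at 122 ± 23.8 CPM in siMYC and 74.6 ± 12.5 CPM in siNC (SD, n = 2 each). SLC46A1, a carrier of folate and heme, fell in both, by 0.84 with MGA and by 0.96 with siMYC. Of 4 tested messages named in the literature as carrying an iron responsive element, CDC42BPA rose with siMYC (0.37, adjusted p = 0.019) and 0 changed with MGA.

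Of 15 genes of ferroptosis and NRF2 signalling, 4 rose and 2 fell with siMYC, and 2 rose and 0 fell with MGA. SLC7A11, the cystine importer, averaged 565 ± 17.5 CPM in siMYC and 395 ± 21.9 CPM in siNC (SD, n = 2 each; log2 fold change 0.52, adjusted p = 3.4e-05 in edgeR), and the lipid enzyme LPCAT3 rose by 0.92. SRXN1, an NRF2 target, fell by 0.48 with siMYC. With MGA NFE2L2, which encodes NRF2, and SAT1, a polyamine enzyme, rose by 0.66 and 0.52.

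**Figure D4:**
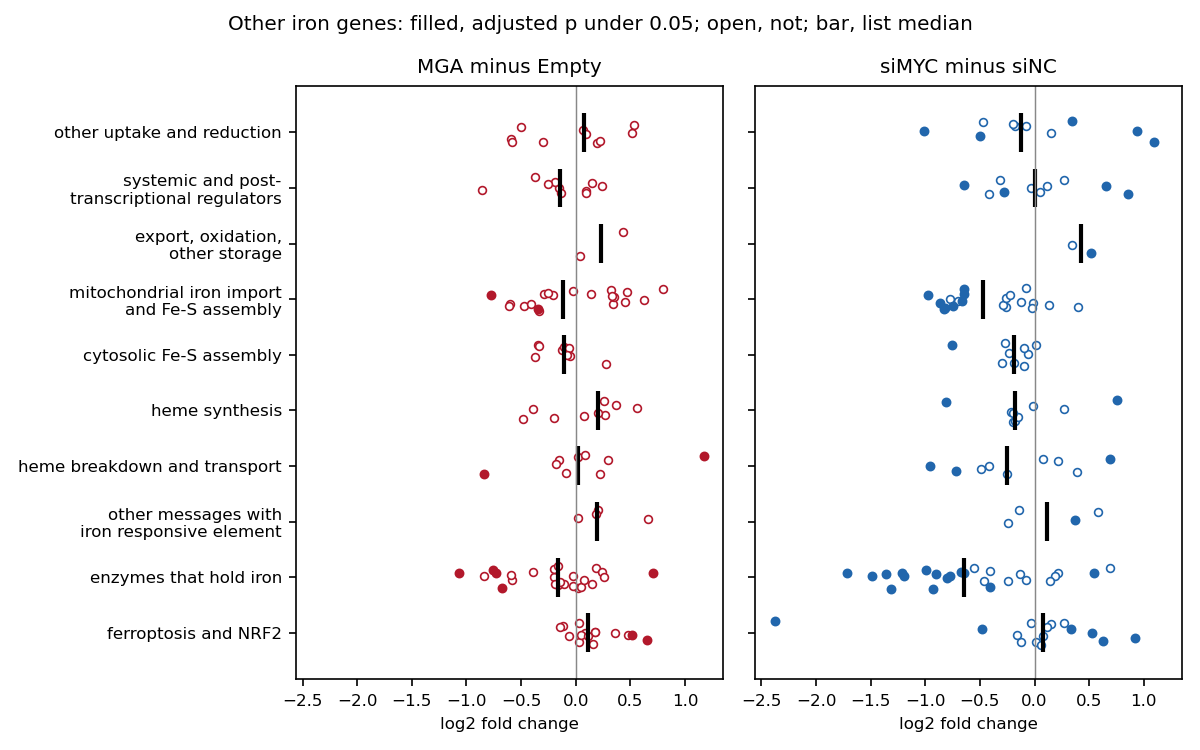
Log2 fold change (x axis) of each tested gene of the 10 iron lists (rows; points are spread vertically for sight only) for MGA minus Empty (left) and siMYC minus siNC (right). Filled points passed an adjusted p of 0.05 and black bars are list medians, which with siMYC lie lowest for the enzymes that hold iron (-0.65) and for mitochondrial import and cluster assembly (-0.47).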

How the data were processed

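Per the labels' protocols, RNA was column-purified and poly(A)-selected before library construction. Per the submitters' processing notes, the build was hg19 and the tools STAR and RSEM, whose versions and annotation the sources used here do not give. Expected counts, TPM and FPKM per gene were deposited, per the file headers, and FPKM was not used. RSEM divides reads that fit several genes, and whether strand was used is not stated. RSEM's effective length per gene, also deposited, was read beside TPM.

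Expected counts were rounded and scaled by TMM. Of all genes 11218 passed filterByExpr at a minimum count of 10 and a minimum total of 15. All 8 libraries entered 1 model of 4 group means with no block, under R 4.3.3 and edgeR 4.0.16. Quasi-likelihood F tests were two-sided and adjusted by Benjamini-Hochberg over all genes tested, with calls at 0.05. SE is the log2 fold change over the square root of F. Replicates differed by more than sampling noise (chi-square per degree of freedom 1.13 to 1.85). Alternatives were limma 3.58.1 on log2(TPM + 1) over genes with a mean TPM of at least 1, DESeq2 1.42.0, other scalings, no filter, 1 experiment alone, the replicate block, no MGA gene, summed copies and leaving out each library. The script was tested on simulated data. Members and lists were chosen with earlier results of these data known. Named list genes are the 3 called members with the smallest p per list and comparison (a part is shown), or had 0 counts. TF, TFR2, HAMP and the genes with a match beside the members were named after their values were seen. Element coordinates are from GENCODE 29 and promoter windows from RefSeq, both GRCh38. No hg19 coordinates were used. Some single-gene values of the lists are not reported here.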

Additional observations from a re-analysis of the deposited data

Results flagged for a closer look

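The response to MGA (MGA minus Empty) and the response to siMYC (siMYC minus siNC) differed by the interaction contrast in edgeR (adjusted p under 0.05) for 7 members. On the log2 scale the difference was 1.22 for TFRC, 0.86 for NCOA4, 0.88 for SLC11A2, 0.41 for FTL, -0.36 for FTH1, -0.63 for IREB2 and -1.75 for SLC40A1. The SLC40A1 value rests on 6 and 7 counts in MGA and 9 and 8 counts in Empty. Groups of 2 libraries are too small for a check of outlying samples.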

How the results depend on the processing

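The count of members called with MGA, 2 in all, was 1 with DESeq2, 1 with unscaled library sizes, 1 with scaling by the upper quartile and 0 with limma on TPM, and 0 to 1 when a library was left out. With siMYC the count of 6 was 3 with limma on TPM and 5 to 6 when a library was left out. The count of 7 for the difference between the responses was 4 with DESeq2, 2 with limma on TPM and 3 to 7 when a library was left out. The siMYC count was 5 with DESeq2, and the count for the difference was 5 with unscaled library sizes and 6 with scaling by the upper quartile. With the replicate block the counts were 2, 6 and 7, as without it. The labels do not say that a letter marks a shared batch or day. Deviations of same-lettered libraries correlated at -0.0023 in the vector experiment and 0.25 in the siRNA experiment, and the block moved the calls over all genes to 1176, 4657 and 2292.

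Over all genes the calls, 1005 with MGA, 4370 with siMYC and 2076 for the difference, were 358, 1971 and 827 with DESeq2 and 68, 968 and 213 with limma on TPM. When a library was left out they were 402 to 474 with MGA and 1309 to 1937 for the difference. The split of higher to lower calls with MGA, 556 to 449, was 300 to 821 with unscaled library sizes and 387 to 628 under upper-quartile scaling. For the difference the split of 1154 to 922 was 714 to 1357 and 804 to 1188 under those scalings and 892 to 1101 without the MGA gene. Unscaled library sizes moved the median of all genes to -0.12 with MGA and to -0.14 for the difference, and TPM moved it to 0.14 with siMYC.

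Signs that turned belong to values that were never called. With unscaled library sizes ACO1 with MGA was -0.030. On TPM, SLC11A2 and STEAP3 with MGA were 0.40 and 0.16, and FTL and IREB2 with siMYC were 0.071 and -0.096. When a library was left out, log2 fold changes with MGA ran between -0.028 and 0.0033 for FTH1, -0.12 and 0.36 for ACO1, -0.20 and 0.17 for SLC11A2, and -0.35 and 0.043 for STEAP3, FTL with siMYC between -0.20 and 0.0016, and the ACO1 difference between -0.36 and 0.11. The causes were not tested. No member's call changed with RLE size factors, no filter, summed copies, the block or the MGA gene left out. Fitting 1 experiment alone changed no call either, but SLC40A1 was not tested there with MGA. Depth limits SLC40A1 most in the vector experiment.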

Other observations

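The genes whose log2 CPM ran closest to a member over the 8 libraries are named as a description only, since the libraries fall into 4 groups of 2 and share depth and experiment. Among 6526 genes, Pearson's r was highest with DCUN1D5 (0.993), NAA15 (0.992) and PDAP1 (0.992) for TFRC, with MGAT5B (0.979), the lysosomal protease CTSD (0.977) and FAM129B (0.974) for FTH1, and with TMBIM6 (0.997), the quinone reductase NQO1 (0.996) and CHMP3 (0.994) for SLC40A1. For ACO1 the closest gene, ADO, reached 0.920, the lowest such value among the 9 members.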
